A study of Caenorhabditis elegans with 8 samples.

Results

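The genes described here are 10 intestinal protease genes of Caenorhabditis elegans: the aspartyl protease genes asp-1 to asp-6 and the cysteine protease genes cpr-1, cpr-3, cpr-4 and cpr-6. They were chosen by gene name, and all 10 were found among the 44968 genes listed for poly(A) RNA and, by sequence name, among the 25640 genes listed for rRNA-depleted RNA. All 8 RNA-seq libraries came from whole young adults grown as synchronized liquid cultures, in 4 groups of 2 libraries. Wild-type animals (strain N2 with the empty RNAi vector L4440, per the header of the poly(A) table) and animals given RNAi against CstF50 were each sequenced as poly(A)-selected RNA and as rRNA-depleted RNA. CstF50, encoded by cpf-1, belongs to the cleavage stimulation factor, a complex that helps to cut pre-mRNA before the poly(A) tail is added. For rRNA-depleted RNA the authors name their conditions only A and B, so no treatment is assigned to either and each difference is given as B against A.

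Aspartyl proteases of the pepsin and cathepsin D family work at acid pH with a pair of active-site aspartates, and cathepsin B proteases of the papain family use an active-site cysteine. Both are made as inactive precursors and are held in the lumen of digestive tracts or in lysosomes. The worm intestine is a tube of large cells that secretes such enzymes onto the bacteria it has eaten and also stores them in lysosome-related gut granules. Because RNA came from whole animals, fewer intestinal cells and less RNA per intestinal cell cannot be told apart.

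The poly(A) table holds 1 FPKM (fragments scaled by transcript length and by the number mapped) per group, so the 2 libraries of a group cannot be seen separately and the depth of the libraries is unknown. In the rRNA-depleted table each mean is a sum of 2 scaled whole counts, and the counts of all 10 genes could be read back for every library. Library 1 of a condition is the one with the larger size factor, and neither library is tied to a sample label. Counts recovered over all genes summed to between 2852379 and 35638137 per library, leaving out the most abundant genes. In poly(A) RNA the targeted gene was not lower in the libraries labelled RNAi. By the authors' deposited table cpf-1 stood at 50.5 FPKM in those labelled wild type and 67.8 in those labelled RNAi (q-value 0.613). In rRNA-depleted RNA cpf-1 stood at 1695 (A) and 8662 (B) normalized counts, 5.11-fold higher in B (adjusted p-value 0.00296 per the authors' deposited table). Since A and B carry no treatment, these counts do not show whether cpf-1 was lower in RNAi. Wild type and RNAi therefore mean the libraries so labelled, wherever a direction is given. Genes were called changed at an authors' q-value or adjusted p-value under 0.05.

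The protease genes spanned a 1040.3-fold range of FPKM in wild type. At the top stood asp-1, which encodes an intestinal cathepsin D-like protease, at 11039.5 FPKM in wild type and 5890.0 in RNAi per the authors' deposited table. It ranked 51 in wild type and 94 in RNAi among 19245 protein-coding genes by FPKM. Next in wild type came asp-6 with 3544 FPKM, cpr-4 with 1496, asp-5 with 1402 and cpr-6 with 1358 FPKM per the authors' deposited table. Behind them followed asp-3 with 885 FPKM, asp-2 with 506, cpr-1 with 359 and asp-4 with 282 FPKM. The gene cpr-3 was far below the rest, at 10.6 FPKM in wild type and 4.51 in RNAi per the authors' deposited table. No value per library exists for poly(A) RNA, so it cannot be said which neighbours in this order differ beyond the spread of libraries.

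**Figure D1:**
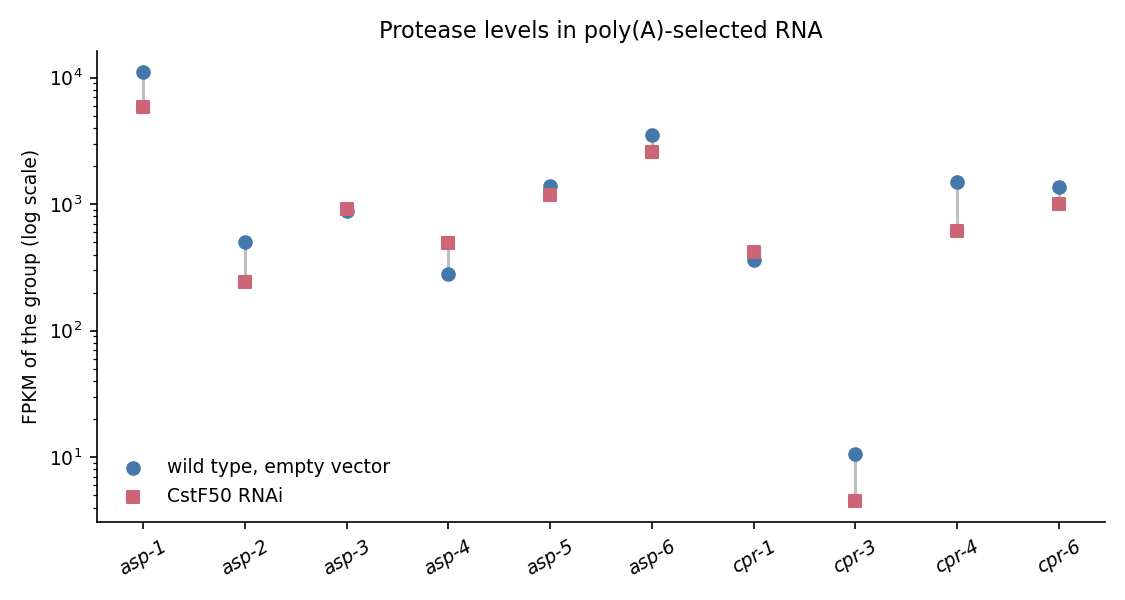
FPKM of the 10 protease genes in poly(A)-selected RNA, on a log scale, with 1 point per group (circle for wild type with the empty vector, square for CstF50 RNAi) and a grey line joining both groups of a gene. The values run from 4.51 FPKM for cpr-3 in RNAi to 11039.5 FPKM for asp-1 in wild type. In RNAi 7 of 10 genes lie lower, beside 80% of all tested genes.

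The 1 protease gene that passed the authors' test in poly(A) RNA was cpr-4, which fell in CstF50 RNAi. This cathepsin B gene went from 1496 FPKM in wild type to 609.7 FPKM in RNAi, 2.45-fold lower, per the authors' deposited table (log2 fold change -1.29, implied standard error 0.45, q-value 0.0332). The count of 1 lower and 0 higher among 10 compares with 13.6% of 8513 tested genes called lower and 3.12% called higher, or 16.8% called in all. Without adjustment 1 of the 10 genes had p under 0.05. The standard error (SE) used here is the one implied by the authors' 2-sided p-value, since no other error was given.

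The other 9 genes did not pass. Of the aspartyl protease genes, asp-1 had a log2 fold change of -0.91 (implied SE 0.56), per the authors' deposited table with a q-value of 0.24. For asp-2 the levels were 506 and 243 FPKM in wild type and RNAi per the authors' deposited table, or -1.06 as log2 fold change (implied SE 0.58, q-value 0.179). The FPKM of asp-5 and asp-6 were 1178 and 2565 in RNAi, with log2 fold changes of -0.25 and -0.47 and q-values of 0.699 and 0.487 per the authors' deposited table. Both asp-3 and asp-4, which encode cathepsin D-like proteases known to act in the necrotic death of worm neurons, had higher values in RNAi. Per the authors' deposited table asp-3 had 885 and 908 FPKM in wild type and RNAi (q-value 0.96), and asp-4 had 282 and 497 FPKM (log2 fold change 0.82, implied SE 0.45, q-value 0.186). The 95% interval of the asp-4 difference ran from -0.07 to 1.71 on the log2 scale.

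Among the remaining cathepsin B genes, cpr-1, a gut-expressed protease gene, stood at 359 FPKM in wild type and 415 in RNAi per the authors' deposited table (log2 fold change 0.21, q-value 0.763). The levels of cpr-6 were 1358 and 996 FPKM per the authors' deposited table (log2 fold change -0.45, q-value 0.511). The cpr-3 difference was close in size to that of cpr-4, with a log2 fold change of -1.23, but it rested on a low level with an implied SE of 0.82 and a q-value of 0.271 per the authors' deposited table. Its 95% interval ran from -2.83 to 0.37, that of cpr-4 from -2.18 to -0.41.

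Most genes had lower FPKM in the RNAi group, so these changes were also set against the median tested gene, whose log2 fold change was -0.90. The protease genes had a median of -0.46, with -0.36 for the 6 asp genes and -0.84 for the 4 cpr genes. Relative to the median gene 6 of 10 protease genes were higher, and asp-4 was the 1 gene that passed, at 1.72 (adjusted p = 0.0046 from the normal deviate of that difference, Benjamini-Hochberg adjusted). By that measure 6.14% of genes passed in all, and 5.63% of 8243 genes passed as higher and 0.510% as lower. At a relative log2 fold change of -0.40, cpr-4 did not pass (adjusted p = 0.817), and asp-1 at -0.01 lay at the median. Among all tested genes with both values above 0, asp-4 stood at percentile 91.4 of the log2 fold changes, cpr-1 at 84.9 and asp-3 at 82.0, against 31.4 for cpr-4 and 34.1 for cpr-3.

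In rRNA-depleted RNA 3 of the 4 cathepsin B genes were called and none of the 6 aspartyl protease genes. The genes cpr-3 and cpr-4 were lower in B and cpr-1 was higher there, each by about the same factor. These 3 of 10 genes, 1 higher and 2 lower, compare with 8.31% of all 25640 genes called, 5.54% higher and 2.77% lower. By limma-voom on the recovered counts 5 of the 10 passed, 3 higher and 2 lower, against 23.2% of 25363 genes (12.7% higher and 10.5% lower). Normalized counts of the 2 libraries of A lay apart from those of B in 6 of the 10 genes, close to the 58.2% of all genes with recovered counts. The median log2 fold change of the 10 was -0.01, beside 0.02 for all genes.

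Normalized counts of cpr-4 were 4832 and 4833 for condition A and 2222 and 2318 for condition B. Both libraries of B were below both of A, which differed from each other by less than B's did. The recovered counts behind these values were 3570 and 1204 in A and 8070 and 3571 in B. Per the authors' deposited table cpr-4 was 2.13-fold lower in B, with an adjusted p-value of 1.51e-05. By limma-voom its log2 fold change was -1.10 (SE 0.08, adjusted p = 9.75e-09).

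For cpr-3 the normalized counts were 1551 and 1265 in A, against 557 and 689 in B. Its libraries differed more within a condition than those of any other of the 10 genes, by 20.4% of the mean in A and 21.3% in B, yet the conditions did not overlap. The authors' deposited table gives a 2.26-fold lower mean in B (adjusted p-value 0.000371). The log2 fold change by limma-voom was -1.28 (SE 0.14, adjusted p = 4.22e-06).

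The cpr-1 counts moved the other way. They were 1298 and 1196 normalized counts in A and 2430.2 and 2774 in B, so that both libraries of B lay above both of A. This was a 2.09-fold higher mean in B per the authors' deposited table, with an adjusted p-value of 9.14e-05 (limma-voom log2 fold change 1.00, SE 0.13). The remaining cathepsin B gene, cpr-6, had 6679 and 6784 normalized counts in A and 7279 and 6591 in B, and its conditions overlapped. Its adjusted p-value per the authors' deposited table was 1.

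**Figure D2:**
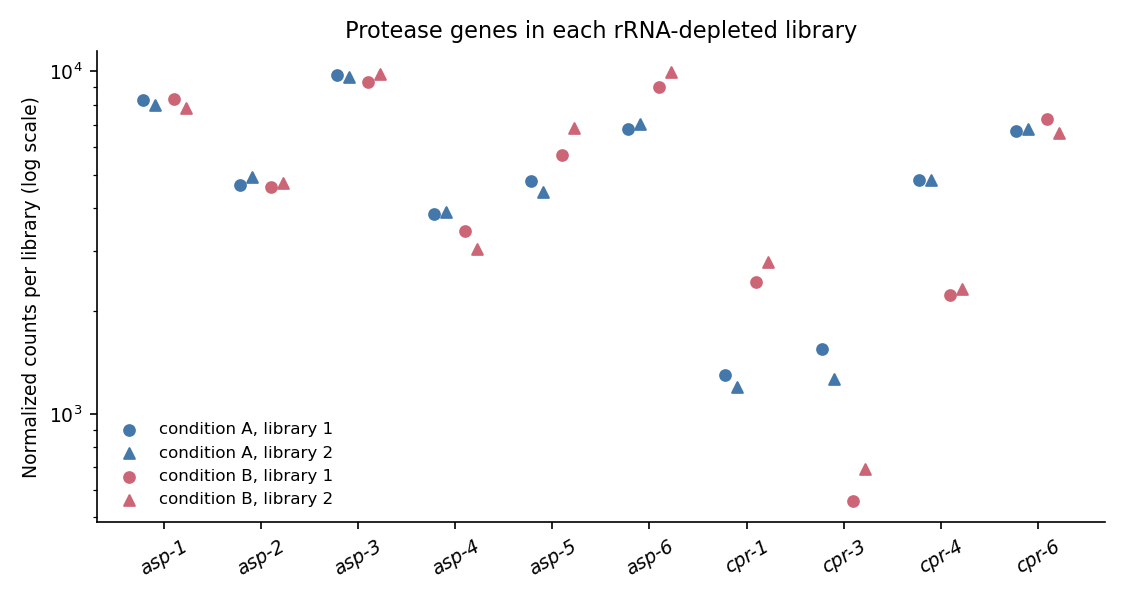
Normalized counts of the 10 protease genes in each rRNA-depleted library, on a log scale, with blue for condition A, red for condition B, circles for library 1 and triangles for library 2. The B libraries of cpr-3 (557 and 689) and cpr-4 (2222 and 2318) lie below those of A, and the B libraries of cpr-1 (2430.2 and 2774) lie above.

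The aspartyl protease genes asp-1, asp-2 and asp-3 had nearly equal counts in A and B. The values of asp-1 were 8279.9 and 7961 normalized counts in A and 8295 and 7805 in B. Those of asp-3, which had the largest counts of the 10 genes in A, were 9732 and 9631 in A and 9304 and 9826 in B. For asp-2, 4662 and 4926 normalized counts were found in A, against 4602 and 4718 in B. Libraries of the conditions overlapped for all 3, and each had an adjusted p-value of 1 per the authors' deposited table. Limma-voom gave log2 fold changes of -0.02, -0.03 and -0.02 (SE 0.06, 0.07 and 0.06), against 1.00, -1.28 and -1.10 for cpr-1, cpr-3 and cpr-4.

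The neighbouring genes asp-5 and asp-6 had higher counts in B without passing the authors' test. Normalized counts of asp-6 were 6806 and 7045 in A and 9013 and 9951 in B, and those of asp-5 were 4796 and 4460.0 in A and 5709 and 6815 in B. Both B libraries lay above both A libraries in each gene. The ratios were 1.37 for asp-6 and 1.35 for asp-5, with adjusted p-values of 0.161 and 0.356 per the authors' deposited table. Both genes passed by limma-voom, with log2 fold changes of 0.46 (SE 0.07, adjusted p = 0.000137) and 0.38 (SE 0.10, adjusted p = 0.00964). Without library 1 of A neither passed by limma-voom (adjusted p = 0.182 for asp-6 and 0.157 for asp-5), and asp-5 did not pass without library 2 of A either (adjusted p = 0.146).

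Values of asp-4 were slightly lower in B, at 3835 and 3890.0 normalized counts in A and 3426 and 3027 in B. The libraries did not overlap, but the difference did not pass the authors' test (adjusted p-value 0.831 per the authors' deposited table) or limma-voom (log2 fold change -0.22, SE 0.09, adjusted p = 0.0736). In poly(A) RNA this gene had a higher value in RNAi. The poly(A) and rRNA-depleted values cannot be joined into 1 direction because A and B carry no treatment.

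**Figure D3:**
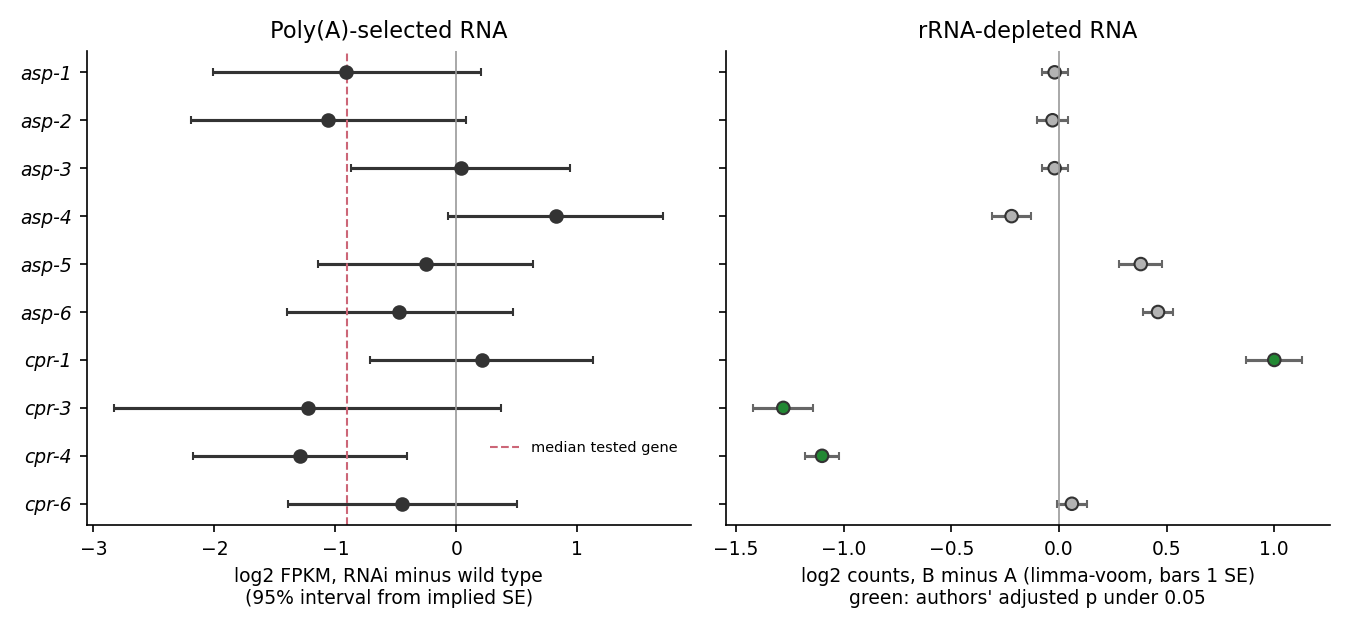
Log2 differences of the 10 protease genes. The left panel shows RNAi minus wild type in poly(A) RNA with the 95% interval from the implied SE and a dashed line at the median tested gene (-0.90), and the right panel shows B minus A in rRNA-depleted RNA by limma-voom with bars of 1 SE and green points for genes called by the authors. The intervals on the left are wide and that of cpr-4 (-2.18 to -0.41) is the 1 that leaves out 0, while on the right cpr-1 (1.00), cpr-3 (-1.28) and cpr-4 (-1.10) stand far from 0.

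Summed over the 10 genes, normalized counts were 52231 in A and 53676 in B, a ratio of 1.03. Their order changed all the same. Per kilobase of exon the order in A was asp-1, asp-3, asp-6, cpr-6, cpr-4, asp-5, asp-2, asp-4, cpr-1 and cpr-3, and library ranges of neighbours overlapped for asp-6 with cpr-6 and for cpr-1 with cpr-3. In B asp-6 came first at 7069 to 7805 normalized counts per kilobase, and cpr-4 dropped from place 5 to place 9. Neighbours overlapped in B for asp-1 with asp-3, cpr-6 with asp-5 and cpr-1 with asp-4. In A cpr-4 exceeded cpr-1 by 3.70 times per kilobase (4281 against 1157), while in B the cpr-1 level was 1.20 times that of cpr-4 (2414 against 2010.5).

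The spread of levels was much smaller in rRNA-depleted than in poly(A) RNA, although the 2 tables were normalized separately and only levels within a table can be compared. Across the 10 genes the highest level per kilobase was 6.63 times the lowest in A, against 1040.3 times in wild-type FPKM. The span was wider in B, from 455 per kilobase for cpr-3 to 7437 for asp-6, and RNAi FPKM ran from 4.51 to 5890.0. Neither A nor B is matched to wild type or RNAi here. The lowest gene was cpr-3 in both conditions and in both poly(A) groups, and much of the FPKM span rests on it. Among the 6 asp genes the spans were 2.58 times in A and 39.2 times in wild-type FPKM. In A cpr-3 and cpr-1 had nearly equal levels per kilobase, at 1028 and 1157. In B the cpr-1 level was 5.31 times that of cpr-3, at 2414 against 455. In poly(A) RNA the FPKM of cpr-1 was 33.9 times that of cpr-3 in wild type and 92 times in RNAi. The asp-1 level exceeded that of asp-3 by 1.03 times per kilobase in A and in B. By FPKM it did so by 12.5 times in wild type and 6.49 times in RNAi. FPKM divided by normalized counts per kilobase placed asp-1 at percentile 98.3 and cpr-3 at percentile 9.1 of 16354 protein-coding genes with values in both tables, and the other 8 genes between 70.5 and 93.6. The authors' loci show no other gene in the loci of asp-1 and cpr-3. Exon lengths were those of WBcel235, which need not match the authors' gene models.

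**Figure D4:**
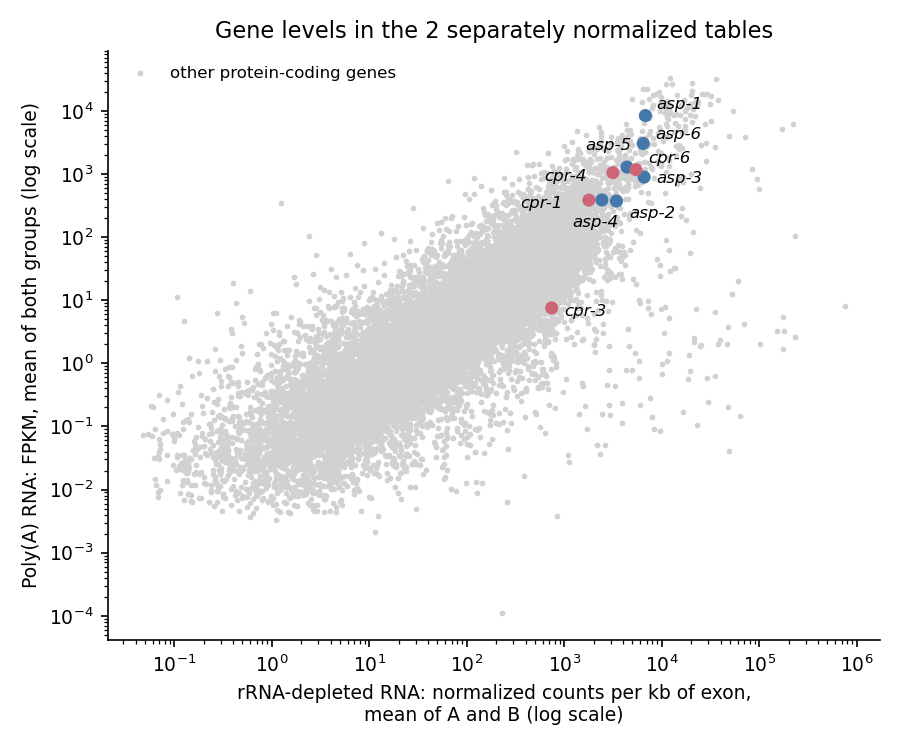
FPKM in poly(A) RNA (mean of both groups) against normalized counts per kilobase of exon in rRNA-depleted RNA (mean of A and B), both on log scales, for 16354 protein-coding genes (grey), the asp genes (blue) and the cpr genes (red). Most of the 10 genes sit near the top of the cloud, asp-1 lies at its upper edge and cpr-3 lies well below the other 9.

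By position, 7 of the 10 genes lie on chromosome V and 3 on chromosome X (build ce10, authors' loci). The cpr-4 locus spans 6614657 to 6615828 on chromosome V, cpr-1 spans 11975496 to 11976740 and cpr-3 spans 15296817 to 15298659. The loci of asp-6 (8267526 to 8268919) and asp-5 (8272355 to 8274027) on chromosome V are 3435 bases apart, and asp-12, another aspartyl protease gene, fills most of the gap (8269234 to 8272038). The cpr-9 gene, described with the other cpr genes, lies beyond cpr-1 at 12003009 to 12004581. The asp-1 locus lies at 19049094 to 19050796 on the same chromosome. On chromosome X lie cpr-6 (6607166 to 6609009), asp-3 (6791025 to 6792676) and asp-4 (13217032 to 13221400). The authors' locus is shared with another gene for 3 of the 10, asp-2 (chromosome V, 9199657 to 9207444) with the innexin gene inx-10, asp-4 with R12H7.4 and cpr-4 with the piRNA gene 21ur-14330. Per the authors' deposited table the neighbours had little signal of their own, inx-10 with 1.45 FPKM (wild type) and 0.138 FPKM (RNAi), R12H7.4 with 0.145 and 0.0852 FPKM, and 21ur-14330 was listed at 0 in both groups.

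The asp and cpr families hold further genes, and among these 2 cathepsin B genes were called lower in B. Of the 4 other cpr genes, those 2 were called lower and none higher, beside 2.77% and 5.54% of all genes. In poly(A) RNA 1 of 3 tested was called lower and none higher, beside 13.6% and 3.12% of tested genes. Counts of cpr-8 were also lower in B, but it was not called. They were 667 and 650.3 normalized counts in A, against 423 and 426 in B (adjusted p-value 0.169 per the authors' deposited table). The gene cpr-9 had 10195 and 10385 normalized counts in A and 5418 and 5137 in B, and cpr-5 had 4246 and 4476 in A and 2169 and 2111 in B. In each gene both B libraries lay below both A libraries. The authors' deposited table gives ratios of 1.95 and 2.04 between A and B (adjusted p-values 0.000157 and 0.00016). In poly(A) RNA cpr-9 fell from 1093 to 387 FPKM per the authors' deposited table (log2 fold change -1.50, implied SE 0.46, q-value 0.0141), and cpr-5 had 1057 and 690.4 FPKM (q-value 0.329). Relative to the median gene cpr-9 did not pass (adjusted p = 0.638). The 4 other cpr genes had a median log2 fold change of -0.96 in B against A, over the 3 with counts in both conditions.

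Of 12 other asp genes, 5 were tested in poly(A) RNA, with 1 called lower and none higher. In rRNA-depleted RNA 9 were listed, with 2 called higher and 1 lower in B. The shares of all genes called are those given above for the other cpr genes. In poly(A) RNA asp-8 fell from 36.0 to 7.28 FPKM per the authors' deposited table (q-value 0.00773), and relative to the median gene it did not pass (adjusted p = 0.243). Its normalized counts were 172 and 177 in A, against 173 and 186 in B. The gene between asp-6 and asp-5, asp-12, had 142 and 153 normalized counts in A and 335 and 263 in B, 2.03-fold higher per the authors' deposited table (adjusted p-value 0.0421). Counts of asp-17 were low, 8.12 and 8.03 normalized counts in A and 66.6 and 85.0 in B, with an adjusted p-value of 0.00299 per the authors' deposited table. The 1 gene lower in B was asp-13, with 1263 and 1108 normalized counts in A and 496 and 547 in B (adjusted p-value 2.35e-05 per the authors' deposited table). Members of this family resemble each other, and how reads shared between copies were counted is not given in the sources used here.

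**Figure D5:**
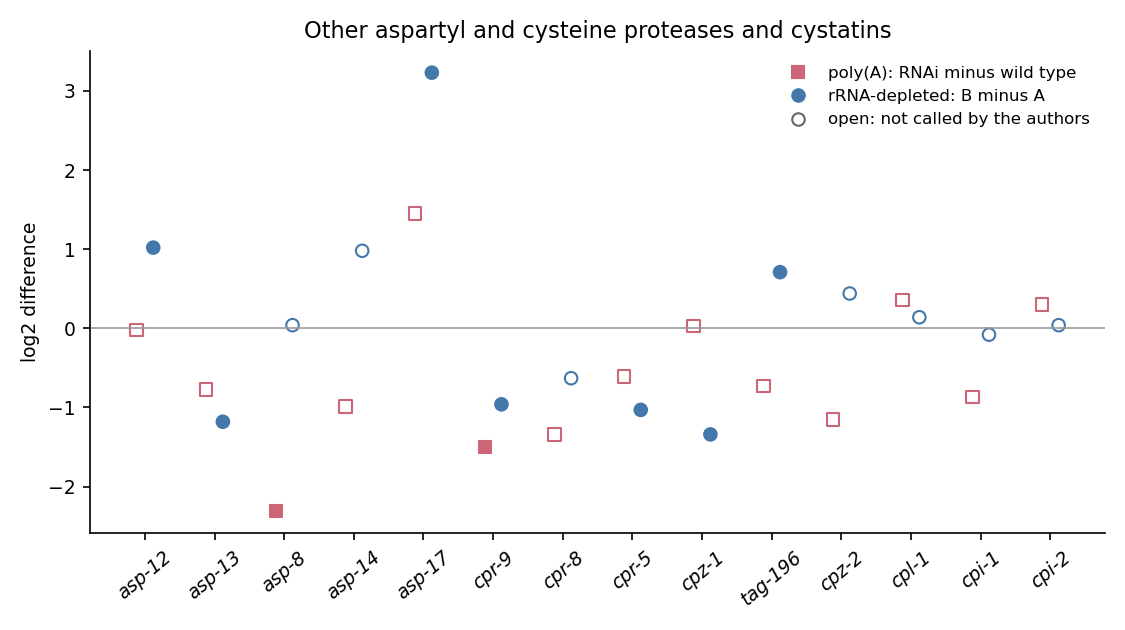
Log2 differences of other asp, cpr and papain-like protease genes and of both cystatin genes tested in both tables, with red squares for RNAi minus wild type in poly(A) RNA, blue circles for B minus A in rRNA-depleted RNA, and open symbols for genes not called by the authors. In rRNA-depleted RNA cpr-9 (-0.96), cpr-5 (-1.03), asp-13 (-1.18) and cpz-1 (-1.34) lie below 0 and asp-12 (1.02) and asp-17 (3.23) above.

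None of 4 other papain-like protease genes passed in poly(A) RNA. In rRNA-depleted RNA 1 was called higher and 1 lower in B, beside 5.54% and 2.77% of all genes. The cathepsin Z gene cpz-1 had 21025 and 24600.5 normalized counts in A and 8665 and 9296 in B, 2.54-fold lower per the authors' deposited table (adjusted p-value 3.21e-06), while its FPKM was 289 in wild type and 295 in RNAi. The cathepsin F-like gene tag-196 was 1.64-fold higher in B (adjusted p-value 0.0468 per the authors' deposited table). The cathepsin L gene cpl-1, the widely expressed lysosomal member of the family, had 7370.3 and 7298 normalized counts in A and 8367 and 7762 in B, and 878 and 1126 FPKM in wild type and RNAi, with an adjusted p-value of 1 and a q-value of 0.589 per the authors' deposited table.

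Genes for cystatins, the inhibitors of papain-like proteases, did not pass in either RNA fraction. Per the authors' deposited table cpi-1 had 966 and 529 FPKM in wild type and RNAi (q-value 0.159) and cpi-2 had 946 and 1161 FPKM (q-value 0.698). Both had an adjusted p-value of 1 in rRNA-depleted RNA. Calpains are calcium-dependent cysteine proteases, and in worms clp-1 and tra-3 act together with asp-3 and asp-4 in necrotic cell death. Of 6 calpain genes none was called lower in B and 3 were called higher, beside 2.77% and 5.54% of all genes. The 3 were clp-4 (2.40-fold), clp-1 (1.86-fold) and clp-7 (1.78-fold), with adjusted p-values of 0.00147, 0.00202 and 0.0224 per the authors' deposited table. In poly(A) RNA 1 of 4 tested was called lower, beside 13.6% of all tested genes. This was clp-7, from 41.3 to 12.7 FPKM per the authors' deposited table (q-value 0.0219). Values of clp-1 were 36.1 and 29.4 FPKM and those of tra-3 were 18.8 and 7.94 FPKM (q-values 0.688 and 0.137). Set against the median gene, the fall of clp-7 was not called (adjusted p = 0.573). Means of tra-3 were 721 (A) and 663 (B) normalized counts (adjusted p-value 1 per the authors' deposited table).

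Genes for V-ATPase subunits and for lysosome and gut granule membrane proteins were lower in poly(A) RNA where they passed. Shares of all genes called were 13.6% lower and 3.12% higher in poly(A) RNA, and 2.77% lower and 5.54% higher in B. Of 22 subunit genes of the V-ATPase, the proton pump that acidifies lysosomes, 9 were lower in RNAi and none higher, with a median log2 fold change of -1.07, close to the -0.90 of all tested genes. The largest falls were in vha-19 (-1.91), vha-17 (-1.82), vha-2 (-1.80), vha-8 (-1.73), vha-18 (-1.58) and vha-12 (-1.54), with q-values between 0.00389 and 0.0221 per the authors' deposited table. Relative to the median gene no V-ATPase gene passed. In rRNA-depleted RNA 2 were lower in B, vha-1 (log2 fold change -0.68) and vha-14 (-0.62), with adjusted p-values of 0.0186 and 0.0418 per the authors' deposited table. Of 6 tested genes for lysosome and gut granule membrane proteins 3 were lower in RNAi and none higher, namely the cystine transporter gene ctns-1 (98.0 to 33.1 FPKM), the mucolipin channel gene cup-5 (40.7 to 13.3 FPKM) and the lysine and arginine transporter gene laat-1 (22.1 to 6.16 FPKM) per the authors' deposited table. None of these 3 passed relative to the median gene (adjusted p = 0.612, 0.583 and 0.47). Of 16 such genes with rRNA-depleted values 1 was higher in B, ncr-2, from 31.0 to 187 normalized counts per the authors' deposited table (adjusted p-value 2.64e-05). Genes listed as other lysosomal hydrolases had none called among 14 tested in poly(A) RNA, and 1 higher (aagr-4, 2.87-fold) and 1 lower (pho-1, 2.13-fold) of 22 in B. The pho-1 gene is also among the intestine genes below and was counted in both lists.

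Intestinal genes other than proteases also differed in both tables, beside the cpr genes. In poly(A) RNA 4 of 10 tested intestine genes were lower in RNAi and 1 higher, beside 13.6% and 3.12% of all tested genes. Relative to the median gene 1 was lower, pept-1 (adjusted p = 0.0421), and 2 were higher, ftn-1 (0.00652) and the metallothionein gene mtl-2 (0.0412). The peptide transporter gene pept-1, whose product takes up the di- and tripeptides that digestion releases, went from 16.5 to 1.60 FPKM, and the intestinal actin gene act-5 from 1704 to 476 FPKM per the authors' deposited table. The other 2 lower genes were nhx-2 (7.68 to 1.38 FPKM) and erm-1 (113 to 36.6 FPKM), and the ferritin gene ftn-1 rose from 7.95 to 42.7 FPKM per the authors' deposited table. For rRNA-depleted RNA 3 of 15 were lower in B and 1 higher, beside 2.77% and 5.54% of all genes. Lower were pept-1 with 1488 and 1449 normalized counts in A and 626 and 716 in B, act-5 with 5804 and 5479.7 in A and 3332 and 3886 in B, and pho-1 with 633 and 610.2 in A, against 291 and 293 in B. The ferritin gene was 6.44-fold higher in B per the authors' deposited table (adjusted p-value 0.000642). The intestinal GATA factor gene elt-2 had 92.2 and 101 normalized counts in A and B (adjusted p-value 1 per the authors' deposited table), and no intestinal regulator gene was called among 5 tested in poly(A) RNA, elt-2 not being tested there, or among 6 in rRNA-depleted RNA.

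Among markers of other tissues, sperm and cuticle collagen genes were called higher more often than all genes in both comparisons, and body wall muscle genes in B. Of all genes 5.54% were called higher and 2.77% lower in B. In poly(A) RNA 3.12% of tested genes were called higher and 13.6% lower. Of 37 tested sperm genes 18 were higher in RNAi and none lower, and 42 of 53 were higher in B, where their summed mean went from 615 to 35169.6 normalized counts. Cuticle collagen genes were higher in RNAi in 47 and lower in 7 of 102 tested, and higher in B in 72 of 172. Of 9 body wall muscle genes 8 were higher in B, and neuron genes were lower in 1 of 10 and oocyte and germline genes higher in 1 of 10. Among poly(A) values 1 of 6 tested muscle genes was higher, and 2 of 8 neuron genes and 3 of 10 oocyte and germline genes were lower. Relative to the median gene no neuron, oocyte or germline gene was lower, 1 muscle gene and 25 sperm genes were higher, and 55 collagen genes were higher and 1 lower. The summed mean of the 15 intestine genes was 19041 normalized counts in A and 16987 in B. No marker of the intestine was at 0 in either condition, while 16 sperm genes were at 0 in A. Size factors were 0.739 and 0.249 in A and 3.63 and 1.54 in B, so a 0 is more likely in A at an equal normalized level. The part of these other tissues in the protease differences was not tested.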

How the data were processed

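Poly(A) values are FPKM, 1 per group, which the authors deposited beside a p-value, its q-value and a test statistic, as Cuffdiff lays them out, per the file headers. The rRNA-depleted values are mean normalized counts of conditions A and B, deposited by the authors beside raw and adjusted p-values, per the file headers. Build ce10, Bowtie and DESeq are named without versions in the submitters' processing notes, RNA was extracted with Trizol per the labels, with counter, annotation and strand use not given in the sources used here. Both the protease genes and all gene lists were chosen with earlier results of these data known. Besides those genes, members of the protease, inhibitor, lysosome and V-ATPase lists are named if called in either table (at most 6 per list and table), as are intestine genes called in either table and cpl-1, cpz-1, clp-1, tra-3, elt-2, cpi-1 and cpi-2 whatever their value. Other tissue lists are given by counts, and mtl-2, cpr-8 and the genes sharing a locus were named after their values were seen. Log2 fold changes were recomputed from the deposited values over the full tables, and the poly(A) error was derived from the p-value. Whole counts behind each rRNA-depleted mean were solved for within 0.75 units of the last of 10 printed digits, for means up to 30000, giving 25479 genes in A and 25399 in B. These genes hold 12.1% of the normalized counts in A and 42.8% in B, so sums over them do not give the full depth of a library. Limma 3.58.1 (voom, Benjamini-Hochberg) was fitted to the recovered counts of 25363 genes after tests on simulated data. Its library sizes were set from the authors' size factors, which were recovered with the counts. Exon lengths came from Ensembl 115, WBcel235. No label says that the 2 libraries of a group came from separate cultures, so p-values measure a spread that may be technical. With 2 against 2 libraries an exact permutation test cannot go below 0.333, so none was used.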

Additional observations from a re-analysis of the deposited data

How the results depend on the processing

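In poly(A) RNA cpr-4 was called at the main threshold, and 0 of the 10 genes were called at a q-value under 0.01 or with adjustment over all listed genes (cpr-4 adjusted p = 0.165). Relative to the median gene 1 was higher (asp-4) and 0 were lower, and 3 genes changed sign, asp-5 (0.64), asp-6 (0.43) and cpr-6 (0.45), none past the threshold. A minimum FPKM of 1 left the call of cpr-4 in place. In rRNA-depleted RNA limma-voom called 5 genes, 3 of them higher in B, with the authors' recovered size factors and with upper-quartile scaling. The authors' adjusted p-value called 3. Leaving out 1 library at a time gave between 3 and 6 called, between 1 and 3 of them higher in B and between 2 and 3 lower, and cpr-1, cpr-3 and cpr-4 passed each time. Without library 1 of B asp-4 also passed (-0.35, adjusted p = 0.0277). The log2 fold changes that changed sign were those of asp-1 (-0.07 to 0.02), asp-3 (-0.06 to 0.02) and cpr-6 (-0.02 to 0.12). The cause of these differences was not tested. A fit without 1 library leaves a condition with 1 library, assumed to vary like the other condition. No library could be left out for poly(A) RNA, which has 1 value per group. No paired analysis was possible because the poly(A) table has only group values and the recovered libraries carry no replicate number. Low counts limit asp-17, with 6 and 2 in the libraries of A.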
